A study of Mus musculus with 12 samples.

Results

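Transporters of amino acids and neurotransmitters were described in nuclear RNA of adult mouse heart muscle cells. Members were the rows of the count table whose symbol belongs to the solute carrier families SLC1, SLC3, SLC6, SLC7, SLC36, SLC38 and SLC43, leaving out Slc6a8 and the antisense symbols that end in os. This gave 61 genes of the 46983 in the table, all annotated as protein coding. The study set Yap5SA+/tg mice that also carry Myh6-MCM against mice with Myh6-MCM alone, and both groups were adult and had received tamoxifen. Myh6-MCM is a Cre recombinase switched on by tamoxifen and driven by the promoter of a cardiac myosin heavy chain gene, so that cardiomyocytes make Yap5SA, a variant of the co-activator YAP that escapes control by Hippo kinases. Nuclei were selected through PCM1, a protein of the cardiomyocyte nuclear surface, and 2 libraries of each group were sequenced. Other assays of the series were not analysed here.

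These carriers move amino acids and related small molecules across membranes, many of them by exchange or by coupling to sodium or proton gradients. SLC1 and SLC6 proteins clear glutamate, glycine, GABA and the monoamines from synapses, and in other tissues take up neutral amino acids and taurine, an amino acid derivative that the heart holds in large amounts. SLC7 proteins work alone as carriers of arginine and lysine or as light chains that reach the cell surface only when joined to an SLC3 heavy chain. SLC38 proteins carry glutamine and small neutral amino acids, SLC36 proteins couple amino acids to protons, and several members of both sit on lysosomes, where amino acid supply is reported to the growth kinase mTORC1.

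Libraries held between 7850661 counts (control replicate 2) and 15012122 counts (YAP5SA replicate 1). Spread was wider in the control pair, with a biological coefficient of variation of 34.3%, than in the YAP5SA pair, with 8.44%. Levels are given as scaled CPM, the counts of a gene relative to the TMM-scaled total of its library. A gene without counts may lie anywhere under the level of 3 counts, between 0.202 CPM in YAP5SA replicate 1 and 0.396 CPM in control replicate 2. All 8 cardiomyocyte markers passed the filter, with summed levels of 31121 and 65202 CPM in control and 22727 and 23922 CPM in YAP5SA, and 0 passed the threshold with edgeR, with 3 lower and 0 higher at an unadjusted p under 0.05 and 3 lower with DESeq2. Ttn made up most of each sum, with 19829 and 48026 CPM in control. Of the 8, 0 had a positive log2 fold change (YAP5SA minus control), and their median was -1.09, beside -0.06 over all tested genes. Since no label ties replicates to separate animals, each p-value reflects the spread between these libraries alone, and that spread may be technical.

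Among the transporters, a glutamate carrier (Slc1a3), a light chain for large neutral amino acids (Slc7a8), a glutamine carrier (Slc38a1) and an arginine carrier (Slc7a2) rose in YAP5SA, and another glutamate carrier (Slc1a1) fell. Of the 61 genes, 35 passed the filter on low counts and 26 did not. By edgeR's quasi-likelihood test with an adjusted p under 0.05, 4 of the 35 rose (11.4%), where 3.12% of all 17715 tested genes rose. In the same test 1 of the 35 fell (2.86%), where 0.999% of all tested genes fell. At an unadjusted p under 0.05 there were 8 higher and 6 lower members (22.9% and 17.1%), beside 12.7% and 10.9% of all tested genes. In 10 members both YAP5SA libraries lay above both control libraries (28.6%, beside 28.1% of all tested genes), and in 13 members they lay below (37.1%, beside 28.2%). Slc3a1, among the 6 lower members and these 13, and Slc7a15, among the 13, passed the filter only through control and lend no support. The median log2 fold change (YAP5SA minus control) was -0.30 over the 35 members and -0.06 over all tested genes. The members' median depended on the control library kept, at 0.04 without control replicate 1 and -0.71 without control replicate 2, where the median of all genes was -0.0079 and 0.0042. With the stricter filter it was -0.06 over 28 members.

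Families differed in their medians. SLC7 had a median log2 fold change of 1.05 over 9 tested genes, 7 of them with a positive value and 2 past the threshold upward. Of all 17715 tested genes, 8104 had a positive value and 553 (3.12%) passed upward. Slc7a15, 1 of the 2 negative SLC7 genes, passed the filter only through control. SLC6 had a median of -0.74 over 4 tested genes, all negative, and 0 passed with edgeR, with 2 lower and 0 higher at an unadjusted p under 0.05. DESeq2, run without the filter, called 2 SLC6 genes lower, Slc6a17 and Slc6a19, and the latter has 135 counts in control replicate 1 and at most 2 in any other library. The 6 tested SLC1 genes had a median of -0.50, with 1 member past the threshold in each direction. For the 8 tested SLC38 genes the median was 0.02, with 1 past the threshold upward. Medians were -0.98 for the 2 SLC3 genes, -0.02 for the 3 SLC36 genes and -0.64 for the 3 SLC43 genes. The SLC3 median takes in Slc3a1, at -1.66, which passed the filter only through its control libraries. With edgeR 0 members of SLC3, SLC36 and SLC43 passed, with 1 (Slc3a1), 1 and 0 lower at an unadjusted p under 0.05, 0 higher, and 0 calls with DESeq2.

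**Figure D1:**
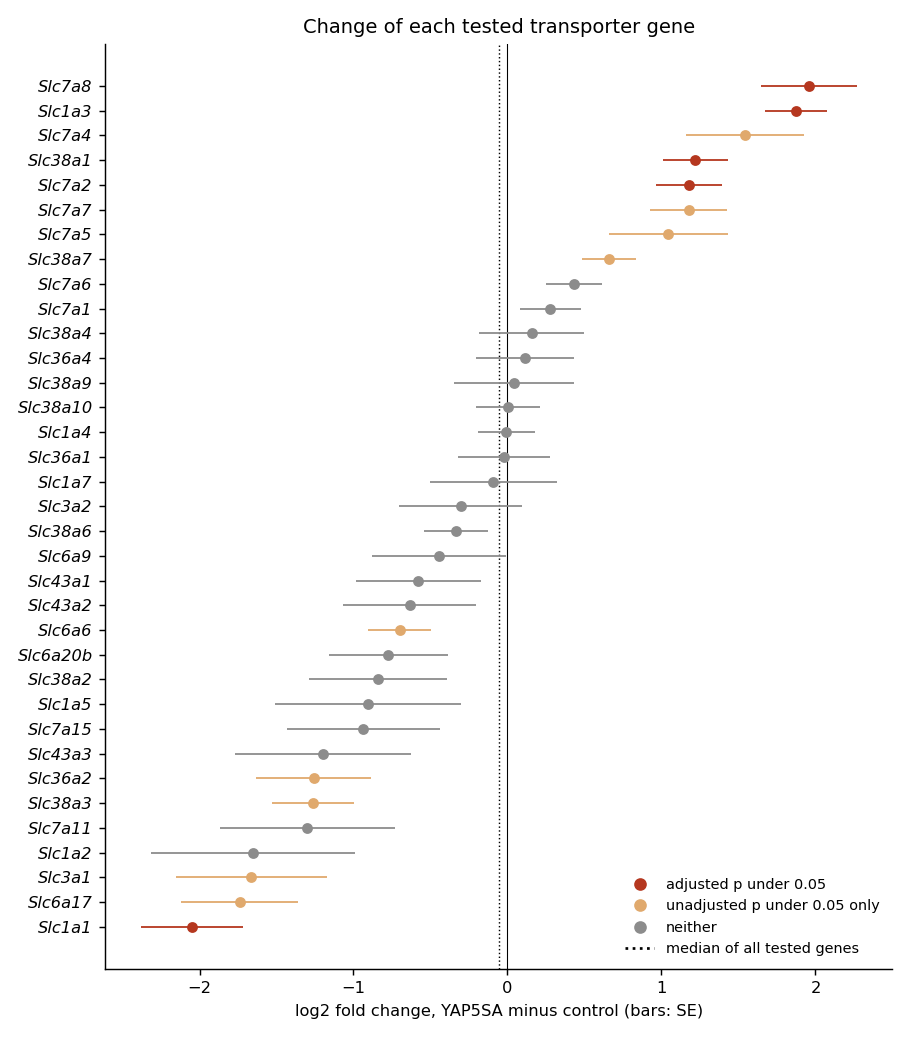
Log2 fold change (YAP5SA minus control, x axis) of the 35 tested transporter genes (y axis), with bars of 1 standard error, red for an adjusted p under 0.05 and orange for an unadjusted p under 0.05 only. The values ran from -2.05 for Slc1a1 to 1.96 for Slc7a8, and the dotted line is the median of all tested genes, -0.06.

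Leaving out libraries moved these counts. Without YAP5SA replicate 1, and likewise without YAP5SA replicate 2, 0 members passed with edgeR. At an unadjusted p under 0.05 there were 12 of 40 members (30.0%) and 10 of 39 (25.6%), beside 10.1% and 8.03% of all genes. Without control replicate 1, 12 of 36 members rose and 7 fell (33.3% and 19.4%), beside 18.8% and 17.4% of all genes. Without control replicate 2, 10 of 40 rose and 17 fell (25.0% and 42.5%), beside 19.7% and 18.6% of all genes. The spread in these last fits comes from the close YAP5SA pair.

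Expression levels were compared between genes as mean CPM per kilobase of exon over the 4 libraries. Slc38a2, whose product SNAT2 takes up small neutral amino acids, was highest at 104 CPM per kb. Next came the taurine carrier gene Slc6a6 at 73.1 and the heavy chain gene Slc3a2 at 46.6 CPM per kb. Slc38a10, at 17.3 CPM per kb, the light chain gene Slc7a5, at 16.8, Slc43a3, at 14.9, and the arginine carrier gene Slc7a1, at 12.2, followed. The order differed between groups. By group mean, Slc43a3 was the fourth in control, at 20.7 CPM per kb with 10.9 for Slc7a5, and Slc7a5 was the fourth in YAP5SA, at 22.7 with 9.06 for Slc43a3. The control place of Slc43a3 rests on control replicate 1, at 32.4 CPM per kb. In control replicate 2 Slc43a3 had 8.92 CPM per kb, below Slc38a10 at 14.6. The order at the top did not hold in every library either, since Slc6a6 stood above Slc38a2 in control replicate 1, at 90.9 against 77.4 CPM per kb. Together Slc38a2 and Slc6a6 made up 52.4% and 75.5% of the summed CPM of the 61 genes in control, and 50.5% and 48.9% in YAP5SA.

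**Figure D2:**
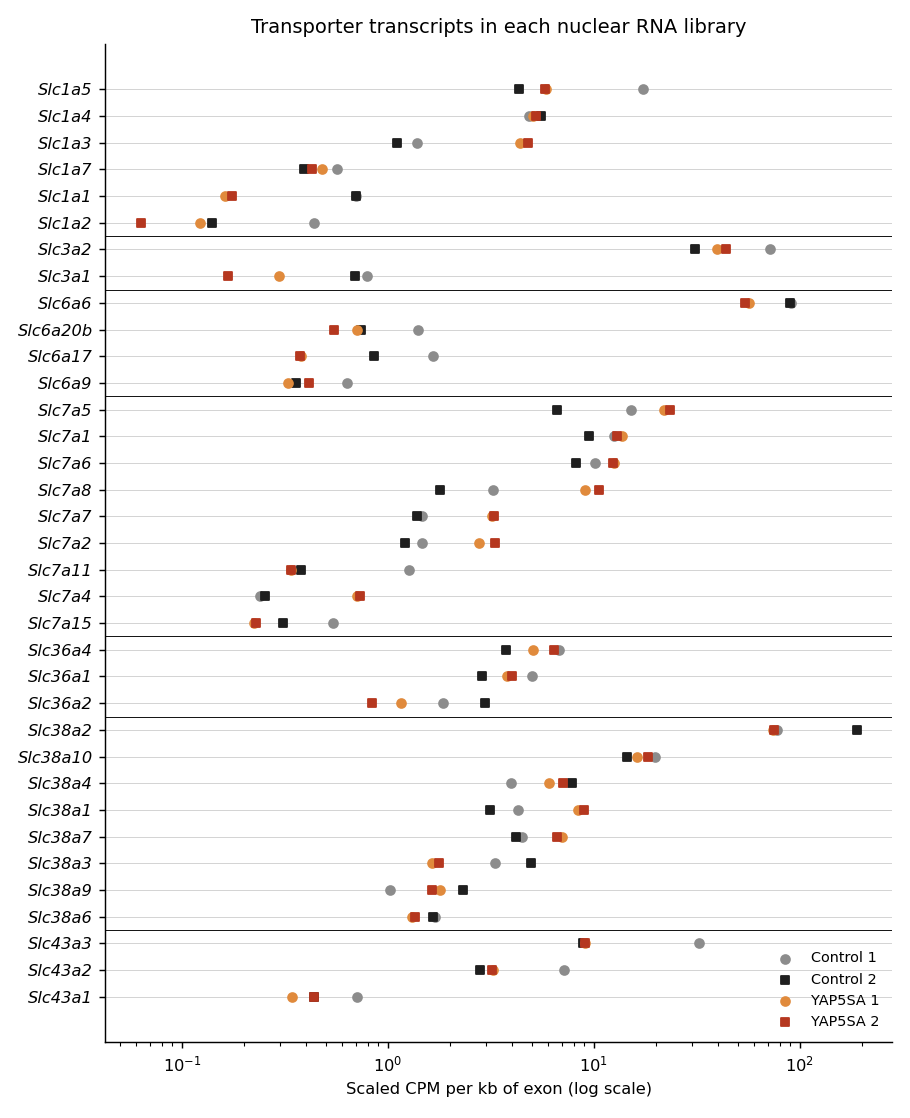
Level of each of the 35 tested transporter genes (y axis, grouped by family) in each of the 4 libraries, in scaled CPM per kb of exon on a log axis. Points of the YAP5SA pair lie close together for most genes, while control replicate 1 stands apart for Slc1a5, Slc43a3, Slc43a2 and Slc7a11 and control replicate 2 for Slc38a2.

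Carriers of the SLC1 family moved in opposite directions. Slc1a3 encodes GLAST, a sodium-driven carrier of glutamate and aspartate known from astrocytes (chromosome 15, 8634124 to 8710764, mm10, minus strand). In control it measured 11.8 and 9.49 CPM, and in YAP5SA 37.6 and 40.9 CPM. The groups did not overlap, and the gene rose 3.66-fold (log2 fold change 1.87, SE 0.20, adjusted p = 0.0257). Slc1a1 encodes EAAC1, which carries glutamate, aspartate and cysteine in neurons and epithelia (chromosome 19, 28835049 to 28913960, plus strand). It measured 5.78 and 5.80 CPM in control and 1.34 and 1.44 CPM in YAP5SA, so that each pair was close and the groups lay apart. The gene fell 4.14-fold (log2 fold change -2.05, SE 0.329, adjusted p = 0.0408), from 64 and 44 counts to 20 and 19. With the replicate number as a block the log2 fold change was -2.05 and the call was lost (adjusted p = 0.0701). An exon of 4430402I18Rik overlaps Slc1a1 on the other strand, and reads of the pair cannot be told apart where counting ignored strand. Of all counts of Slc1a1 and Slc1a3, Slc1a1 held 32.8% in control replicate 1 (exact binomial 95% interval 26.3 to 39.9) and 37.9% in control replicate 2 (29.1 to 47.4). In YAP5SA its share was 3.45% (2.12 to 5.28) and 3.41% (2.06 to 5.27). Such intervals cover counting error only.

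The starts of these glutamate carrier genes are printed because their levels moved in opposite directions and their promoters differ in makeup. Whether promoter makeup goes with the direction of change was not tested. Each is the RefSeq promoter (GRCm38.p6) from 250 bases before to 50 bases after the gene's start, 5′ to 3′ on the gene's strand, with CG dinucleotides in capitals.
Slc1a3, chr15:8710758-8711057, minus strand: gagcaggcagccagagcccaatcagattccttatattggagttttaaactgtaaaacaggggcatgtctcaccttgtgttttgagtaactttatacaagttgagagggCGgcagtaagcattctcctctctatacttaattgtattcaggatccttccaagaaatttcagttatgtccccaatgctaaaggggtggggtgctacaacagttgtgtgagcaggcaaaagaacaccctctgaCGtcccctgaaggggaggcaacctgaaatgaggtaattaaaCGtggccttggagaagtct
Slc1a1, chr19:28834885-28835184, plus strand: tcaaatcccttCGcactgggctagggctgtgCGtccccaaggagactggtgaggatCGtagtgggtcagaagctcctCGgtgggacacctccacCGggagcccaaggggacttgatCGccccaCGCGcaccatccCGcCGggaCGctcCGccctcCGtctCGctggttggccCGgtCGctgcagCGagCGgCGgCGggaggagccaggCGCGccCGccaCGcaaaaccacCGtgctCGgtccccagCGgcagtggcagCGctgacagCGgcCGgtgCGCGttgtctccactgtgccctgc
The Slc1a3 window held 3 CG dinucleotides and 45.3% G and C, and the Slc1a1 window 32 and 70.3%. Over all 32851 promoters of that table the medians were 7 and 52.7%.

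Other SLC1 genes did not pass. Slc1a5, which encodes the glutamine exchanger ASCT2, measured 72.5 CPM in control replicate 1, 18.2 in control replicate 2, and 24.5 and 24.2 CPM in YAP5SA (log2 fold change -0.91, SE 0.601, adjusted p = 0.410). The YAP5SA libraries fell between the control libraries. Its relative Slc1a4, an exchanger of alanine, serine and cysteine, stood at 19.0 and 21.8 CPM in control and 20.04 and 20.5 CPM in YAP5SA (log2 fold change -0.01, SE 0.184). Slc1a2, the main glutamate carrier of astrocytes, had 5.78 and 1.85 CPM in control against 1.61 and 0.834 CPM in YAP5SA (adjusted p = 0.213). Slc1a7, a carrier of the retina, measured between 1.32 and 1.89 CPM in the 4 libraries, and Slc1a6, a carrier of cerebellar neurons, had 0 counts in all 4.

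The SLC3 heavy chains and SLC7 light chains form obligate pairs. Slc3a2 encodes the heavy chain CD98 (chromosome 19, 8706882 to 8723369, minus strand), and its levels of 254 and 109 CPM in control straddled the 140 and 155 CPM of YAP5SA (log2 fold change -0.30, SE 0.398, adjusted p = 0.685). Of its partners, Slc7a8 encodes LAT2, an exchanger of neutral amino acids (chromosome 14, 54722209 to 54781946, minus strand). Slc7a8 measured 16.2 and 8.97 CPM in control and 45.7 and 53.2 CPM in YAP5SA. Every YAP5SA value was above every control value, and Slc7a8 rose 3.88-fold (log2 fold change 1.96, SE 0.311, adjusted p = 0.0401). Slc7a5 encodes LAT1, the leucine and phenylalanine exchanger that feeds mTORC1 in dividing cells (chromosome 8, 121881150 to 121907694). It had 56.3 and 24.7 CPM in control and 81.4 and 86.6 CPM in YAP5SA, without overlap, and missed the threshold (log2 fold change 1.05, SE 0.386, adjusted p = 0.186).

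Set against Slc3a2 in the same library, Slc7a5 was steadier. Counts of Slc7a5 were 18.2% (exact 95% interval 16.9 to 19.5) and 18.4% (16.1 to 20.9) of the joint counts of Slc7a5 and Slc3a2 in control. In YAP5SA they were 36.8% (35.2 to 38.5) and 35.9% (34.2 to 37.5), so that the group values were 18.3 ± 0.190% and 36.3 ± 0.691% (SD, n = 2). For Slc7a8 against Slc3a2 the shares were 6.01% (5.19 to 6.93) and 7.59% (5.94 to 9.52) in control, and 24.6% (23.0 to 26.3) and 25.6% (23.9 to 27.2) in YAP5SA. These shares do not depend on how libraries were scaled. With 2 libraries a group, no exact permutation test can reach 0.05, and none is given.

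**Figure D3:**
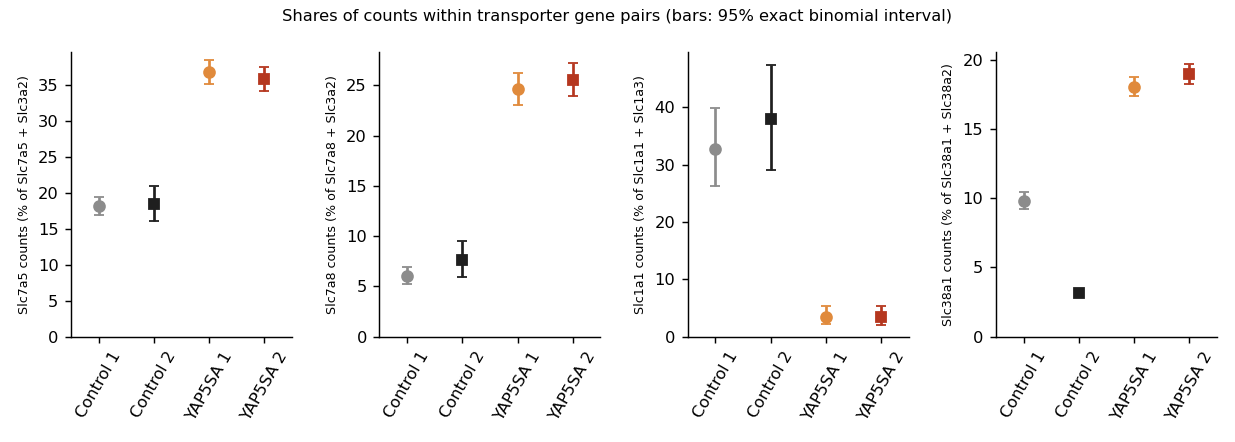
Share of counts (percent, y axis from 0) that 1 gene of a pair holds in each library, with exact 95% binomial intervals that cover counting error only. Slc7a5 held 18.2% and 18.4% of its pair with Slc3a2 in control and 36.8% and 35.9% in YAP5SA, and Slc1a1 32.8% and 37.9% of its pair with Slc1a3 in control and 3.45% and 3.41% in YAP5SA.

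Light chains of the y+L type export arginine and lysine in exchange for neutral amino acids and sodium. Slc7a7, which encodes y+LAT1 and is abundant in macrophages, stood at 4.87 and 4.61 CPM in control and 10.6 and 10.9 CPM in YAP5SA. Its groups lay well apart, yet the gene missed the threshold (log2 fold change 1.18, SE 0.249, adjusted p = 0.0653), and it passed with DESeq2 (adjusted p = 0.0383). An exon of Oxa1l overlaps Slc7a7 on the other strand. Slc7a6, which encodes y+LAT2, measured 46.7 and 37.6 CPM in control and 57.2 and 56.6 CPM in YAP5SA (log2 fold change 0.43, adjusted p = 0.228).

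Slc7a11 encodes xCT, which brings in cystine for glutathione synthesis in exchange for glutamate. It had 17.6 CPM in control replicate 1, 5.27 in control replicate 2, and 4.71 and 4.70 CPM in YAP5SA (log2 fold change -1.30, SE 0.568, adjusted p = 0.242). The YAP5SA level was close to that of control replicate 2, with a log2 fold change of -0.16 against that library alone and of -1.87 against control replicate 1 alone. Measured per kb of exon, the 6 light chains that join Slc3a2 (Slc7a5, Slc7a6, Slc7a7, Slc7a8, Slc7a10 and Slc7a11) summed to 31.8 and 18.4 CPM per kb in control and 47.2 and 50.2 in YAP5SA. Divided by Slc3a2 per kb, this gave 0.443 and 0.596 in control and 1.19 and 1.14 in YAP5SA. Slc7a8 made up 10.2% and 9.72% of the light chain sum in control and 19.3% and 21.2% in YAP5SA. For Slc7a6 the same shares were 32.1% and 44.6%, then 26.5% and 24.7%.

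Promoters of all members were searched for the TEAD motif CATTCC, which YAP reaches through TEAD proteins, and for TGATGNAA, the C/EBP-ATF response element that answers to amino acid shortage, on both strands. The promoter table used here matched 44 of the 61 genes, with 65 promoters in all, and Slc7a2 and Slc38a1 were not among the matched. The TEAD letters stood in 12 of the 65 (18.5%), and in 14.7% of all 32851 promoters of the table. The response element letters stood in 4 of the 65 (6.15%) and in 3.97% of all. These 4 windows belong to Slc1a4, Slc7a7 and Slc7a11, and overlapping windows of Slc7a7 hold the same match, counted in each. Slc7a7 held both motifs, in different windows of its several annotated starts. Slc7a11 held the response element at bases 185 to 192 and, on the other strand, 204 to 211, and these are in capitals below. Slc7a8 held neither motif, as did Slc1a1 and Slc1a3, and its CG dinucleotides are in capitals (20, with 58.0% G and C). No matches of the motifs overlapped in the promoters printed, and a match in letters is no evidence of binding.
Slc7a11, chr3:50443564-50443863, minus strand: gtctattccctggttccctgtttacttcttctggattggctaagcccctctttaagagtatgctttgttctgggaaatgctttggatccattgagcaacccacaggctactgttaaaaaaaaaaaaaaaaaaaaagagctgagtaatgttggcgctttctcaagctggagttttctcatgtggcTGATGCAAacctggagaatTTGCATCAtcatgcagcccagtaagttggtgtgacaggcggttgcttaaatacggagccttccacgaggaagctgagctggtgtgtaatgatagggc
Slc7a8, chr14:54781837-54782136, minus strand: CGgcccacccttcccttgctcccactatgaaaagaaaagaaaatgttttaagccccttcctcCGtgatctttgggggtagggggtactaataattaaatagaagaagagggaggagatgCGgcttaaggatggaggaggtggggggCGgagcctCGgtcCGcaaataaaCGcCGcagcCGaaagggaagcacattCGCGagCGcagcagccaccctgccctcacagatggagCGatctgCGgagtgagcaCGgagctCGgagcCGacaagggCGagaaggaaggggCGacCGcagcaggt

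The second heavy chain gene, Slc3a1, encodes rBAT, the cystine and arginine partner known from kidney. It had 20 and 12 counts in control and 10 and 5 in YAP5SA (adjusted p = 0.126), and it passed the filter only through its control libraries. Its light chain Slc7a9 had 1 count in all, in control replicate 1, and Slc7a13, another light chain of kidney, 2 counts in control replicate 2. An exon of Prepl overlaps Slc3a1 on the other strand.

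Carriers of arginine and lysine that need no heavy chain were led by Slc7a1. Slc7a1 encodes CAT-1, the housekeeping carrier, and it measured 145 and 110 CPM in control and 158 and 150 CPM in YAP5SA (log2 fold change 0.28, SE 0.198, adjusted p = 0.442). Slc7a2, which encodes CAT-2, a carrier known for arginine supply in activated macrophages and liver (chromosome 8, 40862396 to 40922308, plus strand), had 13.4 and 11.1 CPM in control and 25.2 and 30.3 CPM in YAP5SA. The groups did not overlap and Slc7a2 rose 2.26-fold (log2 fold change 1.18, SE 0.212, adjusted p = 0.0492). That call lay at the threshold and was lost with limma-voom (adjusted p = 0.0531) and with the replicate block (log2 fold change 1.18, adjusted p = 0.0830). Slc7a4, a relative with no settled substrate, measured 0.993 and 1.05 CPM in control and 2.96 and 3.03 CPM in YAP5SA (adjusted p = 0.0894). Exons of Gm26584 and P2rx6 overlap Slc7a2 and Slc7a4 on the other strand. Slc7a15, at 18 and 7 counts in control and 10 and 9 in YAP5SA, passed the filter only through control and missed the threshold (adjusted p = 0.316).

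Glutamine carriers of the SLC38 family differed from gene to gene. Slc38a1, which encodes the sodium-driven glutamine carrier SNAT1 (chromosome 15, 96571418 to 96642913, minus strand), measured 74.4 and 53.9 CPM in control and 144 and 155 CPM in YAP5SA. All YAP5SA values lay above control and the gene rose 2.33-fold (log2 fold change 1.22, SE 0.211, adjusted p = 0.0459). With the replicate block the log2 fold change was 1.24 and the call was lost (adjusted p = 0.0628). Its neighbour Slc38a2, 44.5 kb away, had 684 CPM in control replicate 1, 1674 in control replicate 2, and 654 and 664 CPM in YAP5SA (log2 fold change -0.84, SE 0.447, adjusted p = 0.317). Against control replicate 1 alone the log2 fold change of Slc38a2 was -0.02, and against control replicate 2 alone it was -1.34. Slc38a4, an SNAT gene on the same stretch, stood at 17.0 and 33.4 CPM in control around 25.8 and 30.1 CPM in YAP5SA (adjusted p = 0.819). Of all counts of Slc38a1 and Slc38a2, Slc38a1 held 9.80% (exact 95% interval 9.18 to 10.5) and 3.12% (2.83 to 3.43) in control, and 18.1% (17.4 to 18.8) and 19.0% (18.2 to 19.7) in YAP5SA.

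Slc38a3 encodes SNAT3, a proton-coupled glutamine carrier that can run in either direction. It measured 17.4 and 26.1 CPM in control and 8.67 and 9.40 CPM in YAP5SA, without overlap (log2 fold change -1.26, SE 0.265, adjusted p = 0.0647), and DESeq2 called it lower (adjusted p = 0.0202). Its close relative Slc38a5 was without counts in control and had 2 and 1 in YAP5SA. Slc38a6 stood at 13.2 and 12.9 CPM in control and 10.2 and 10.5 CPM in YAP5SA (adjusted p = 0.379), and Slc38a10 at 128, 93.7, 105 and 117 CPM in the 4 libraries in the same order (log2 fold change 0.00, SE 0.208).

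Lysosomal carriers that link amino acids to mTORC1 did not pass. Slc38a9, whose product senses arginine in the lysosome, measured 17.1 and 38.8 CPM in control around 29.9 and 27.3 CPM in YAP5SA (log2 fold change 0.04, SE 0.388, adjusted p = 0.963). Slc38a7, which lets glutamine out of lysosomes, had 18.5 and 17.4 CPM in control and 29.2 and 27.5 CPM in YAP5SA, without overlap (log2 fold change 0.66, SE 0.174, adjusted p = 0.101). Slc36a1, which encodes the proton-coupled carrier PAT1, stood at 28.3 and 16.1 CPM in control and 21.4 and 22.5 CPM in YAP5SA (adjusted p = 0.973). For Slc36a4, a carrier of proline and tryptophan, the values were 44.6 and 24.5, then 33.1 and 42.0 CPM (adjusted p = 0.866). Slc36a2, a carrier of glycine and proline that adjoins Slc36a1 at 19.3 kb, had 6.05 and 9.62 CPM in control and 3.77 and 2.73 CPM in YAP5SA (log2 fold change -1.26, SE 0.374, adjusted p = 0.127).

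In the SLC6 family, 4 of 19 genes passed the filter, and 1 of them was abundant. Slc6a6 encodes TauT, which keeps taurine high in heart muscle (chromosome 6, 91684053 to 91759066, plus strand). It measured 769 and 762 CPM in control and 481 and 461 CPM in YAP5SA, with 5777 to 8520 counts a library. Each pair was close and the groups were apart, at 765 ± 5.08 and 471 ± 14.0 CPM (SD, n = 2), and the adjusted p still missed the threshold (log2 fold change -0.70, SE 0.205, unadjusted p = 0.0162, adjusted p = 0.123). An exon of Gm44981 overlaps Slc6a6 on the other strand. The vesicle carrier gene Slc6a17, known from neurons, had 17.0 and 8.83 CPM in control and 3.90 and 3.87 CPM in YAP5SA (log2 fold change -1.74, SE 0.381, adjusted p = 0.0700), and DESeq2 called it lower (adjusted p = 0.00826). The glycine carrier gene Slc6a9 measured 3.25 and 1.85 CPM in control and 1.68 and 2.12 CPM in YAP5SA (adjusted p = 0.579). Slc6a20b, of the proline carrier branch, stood at 11.9 and 6.33 CPM in control and 6.05 and 4.70 CPM in YAP5SA (adjusted p = 0.293), and reads may be split between it and its close copy Slc6a20a.

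SLC43 carriers differed mainly between the control libraries. Slc43a3, whose product is known as a carrier of purine nucleobases and not of amino acids, had 145 CPM in control replicate 1, 39.8 in control replicate 2, and 40.5 and 40.4 CPM in YAP5SA (log2 fold change -1.20, SE 0.572, adjusted p = 0.277). Slc43a2, which encodes LAT4, a carrier of large neutral amino acids, showed 71.9, 28.2, 32.5 and 32.2 CPM in the same order (adjusted p = 0.418). For both genes the YAP5SA libraries were near control replicate 2. Slc43a1, which encodes LAT3, measured 4.06 and 2.50 CPM in control and 1.95 and 2.50 CPM in YAP5SA (adjusted p = 0.435).

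Differences within the control pair reached 2-fold in 9 of the 35 tested members (25.7%), beside 18.3% of all tested genes, and differences within the YAP5SA pair in 0 members, beside 3.43% of all. Control replicate 1 was higher in 7 of the 9 and control replicate 2 in 2 (Slc38a2 and Slc38a9), while over all tested genes control replicate 1 was the higher in 1447 and control replicate 2 in 1802. Measured against each control library alone, 12 of the 35 members had log2 fold changes of opposite sign (34.3%, beside 32.3% of all tested genes). Slc3a2 and Slc38a9 passed the threshold in opposite directions, with log2 fold changes of -0.75 and 0.78 against control replicate 1 and 0.44 and -0.43 against control replicate 2. Against each control library in turn, 8 members passed upward (22.9%, beside 12.1% of all tested genes: Slc1a3, Slc7a2, Slc7a4, Slc7a5, Slc7a7, Slc7a8, Slc38a1 and Slc38a7) and 5 downward (14.3%, beside 6.64%: Slc1a1, Slc6a6, Slc6a17, Slc36a2 and Slc38a3). These fits share the YAP5SA libraries, and in each the lone control library was assumed to vary like the YAP5SA pair.

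**Figure D4:**
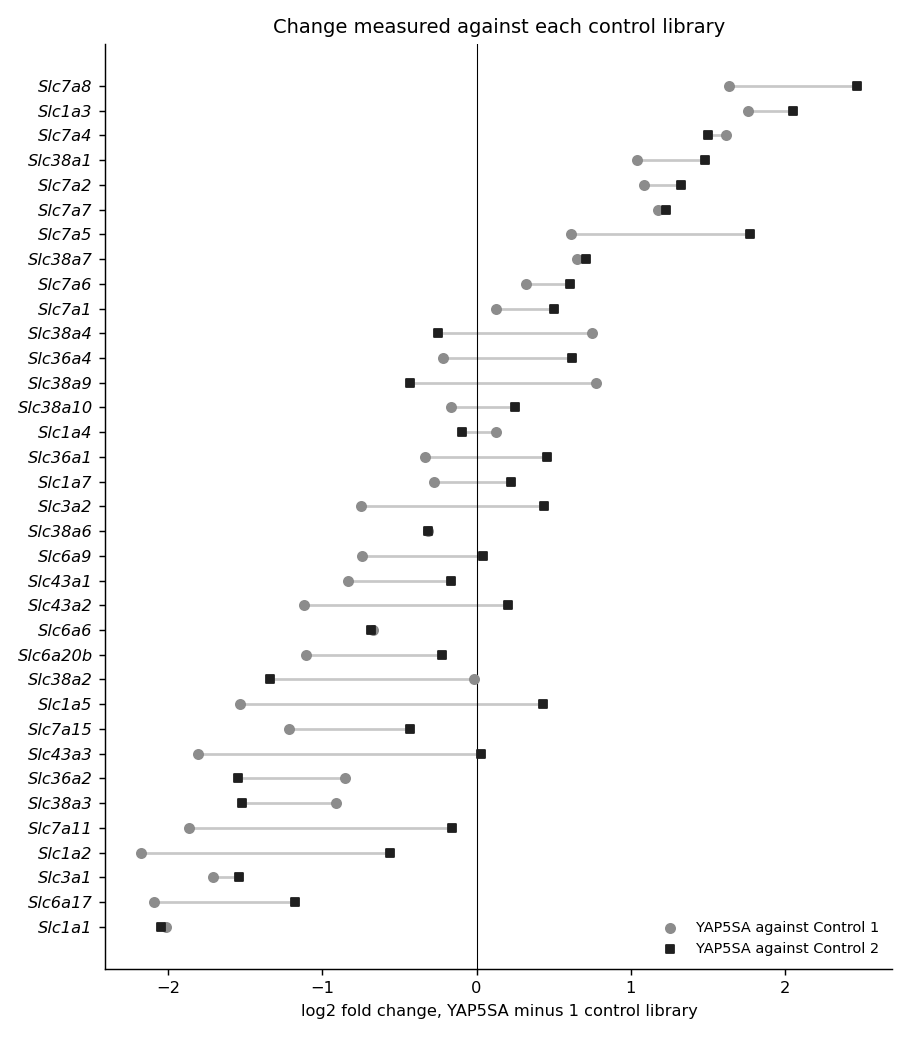
Log2 fold change of the 35 tested transporter genes (y axis) in fits that keep only control replicate 1 (circles) or only control replicate 2 (squares), joined by a line. The symbols nearly coincide for Slc1a1, Slc6a6, Slc38a6, Slc38a7 and Slc7a7, while Slc43a3 moved from -1.81 to 0.03 and Slc1a5 from -1.54 to 0.43.

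Of the 26 members below the filter, 3 had 0 counts in every library (Slc1a6, Slc6a11 and Slc7a12), and 15 of the other 23 were highest in control replicate 1 (65.2%, beside 39.5% of the 12831 genes below the filter with any count). The renal and intestinal neutral amino acid carrier gene Slc6a19 had 135 counts in control replicate 1 and 2, 1 and 2 in control replicate 2 and YAP5SA replicates 1 and 2. Slc7a3, which encodes the arginine carrier CAT-3 of brain, had 50 counts in control replicate 1 and 0 in the other 3 libraries. Slc6a12, the betaine and GABA carrier gene, had 36, 2, 11 and 8 counts, and Slc6a20a, the proline carrier gene of kidney and gut, 16, 1, 1 and 2. The level of each of these genes in control therefore rests on 1 library.

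Carriers of the monoamines and of GABA had few counts. The noradrenaline carrier gene Slc6a2 had 6, 1, 1 and 2 counts in control replicates 1 and 2 and YAP5SA replicates 1 and 2, and the serotonin carrier gene Slc6a4 had 5, 5, 2 and 7. For the dopamine carrier gene Slc6a3 the counts were 5, 0, 0 and 0. Among GABA carriers, Slc6a13 had 7, 0, 1 and 0 counts, and Slc6a11 had 0 throughout. The glycine carrier gene Slc6a5 of inhibitory neurons had 0, 1, 1 and 1, and the proline carrier gene Slc6a7 of brain 4, 0, 0 and 0. The Slc3a2 partner Slc7a10 had 11, 0, 2 and 5. Slc38a11 had 7 or 8 counts in each library, and Slc6a14, Slc6a15, Slc6a16, Slc6a18, Slc7a14, Slc36a3 and Slc38a8 had at most 4 in any library. The edgeR test was not run on these genes.

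**Figure D5:**
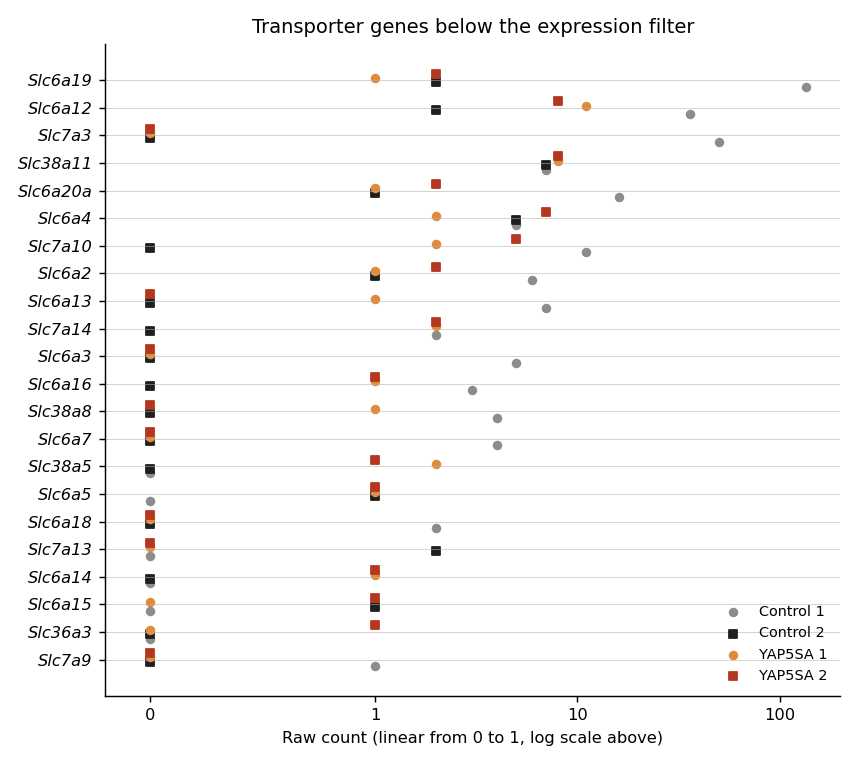
Raw counts of 22 of the 23 transporter genes below the filter that had any count, in each of the 4 libraries (x axis linear from 0 to 1 and on a log scale above). Control replicate 1 holds 135 counts of Slc6a19 and 50 of Slc7a3, where the other libraries have at most 2 and 0.

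Several members lie beside each other in the genome, and neighbours did not share their values throughout. On chromosome 15, Slc38a1 rose while Slc38a2 and Slc38a4 did not pass. Slc7a7 and Slc7a8, 304 kb apart on chromosome 14, had log2 fold changes of 1.18 and 1.96. Slc43a1 and Slc43a3, 73.0 kb apart on chromosome 2, had -0.58 and -1.20. Of the chromosome 11 group, Slc36a2 and Slc36a1 had -1.26 and -0.02, and Slc36a3 was below the filter.

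Genes around amino acid transport were read from 4 lists. Of 21 tested genes of the amino acid response and serine synthesis, 0 passed with edgeR, 2 higher and 1 lower had an unadjusted p under 0.05, and DESeq2 called 1 higher and 0 lower (median log2 fold change 0.11). Of 29 genes of amino acid sensing by mTORC1, 1 fell and 0 rose with edgeR, 2 were higher and 3 lower at an unadjusted p under 0.05, and DESeq2 called 1 in each direction (median -0.10). The gene that fell was Rragd, which encodes a Rag GTPase that ties mTORC1 to lysosomes, from 100.3 and 75.0 CPM in control to 29.8 and 30.7 CPM in YAP5SA (log2 fold change -1.54, SE 0.204, adjusted p = 0.0316). Of 36 tested enzymes of transported amino acids 1 rose and 0 fell, 3 were higher and 4 lower at an unadjusted p under 0.05, and DESeq2 called 2 higher and 1 lower (median -0.33).

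Of 22 tested carriers of amino acids, peptides and neurotransmitters outside the member families, 2 rose and 1 fell (median 0.01). Over all tested genes 3.12% rose and 0.999% fell. With the stricter filter 1 of these carriers rose. Slc15a3, which encodes a lysosomal carrier of histidine and peptides found in immune cells, measured 5.41 and 9.23 CPM in control and 28.4 and 31.3 CPM in YAP5SA (log2 fold change 2.04, SE 0.297, adjusted p = 0.0354). An exon of Tmem132a overlaps it on the other strand. Slc15a1, the intestinal peptide carrier gene, had 1 and 0 counts in control and 22 and 24 in YAP5SA, so that it passed the filter only through YAP5SA and its call (adjusted p = 0.0454) is no support for the list. Slc17a7, which encodes the vesicle glutamate carrier VGLUT1, fell from 18.7 and 20.3 CPM to 4.64 and 7.12 CPM (log2 fold change -1.73, SE 0.281, adjusted p = 0.0417).

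Markers of other cell types moved with the groups, and in bulk nuclei more cells of a type and more RNA per cell cannot be told apart. Among markers of macrophages and monocytes, Adgre1, Fcgr1, Cd14 and C1qa rose, 4 of 8, and 0 fell, with 7 higher at an unadjusted p under 0.05 and 7 with DESeq2, and with summed levels of 706 and 492 CPM in control and 1166 and 1407 CPM in YAP5SA, and 0 of them were without counts. Slc7a7, Slc7a8, Slc7a2, Slc1a3 and Slc15a3 were higher in the same libraries, and the part of macrophages in their values, in nuclei selected through PCM1 to hold cardiomyocytes, was not tested. Of 6 endothelial markers 1 fell (Vwf), with 5 lower at an unadjusted p under 0.05 and 1 with DESeq2, and with summed levels of 1325 and 929 CPM in control against 691 and 657 CPM in YAP5SA. The 6 smooth muscle and pericyte markers summed to 1292 and 903 CPM against 635 and 591 CPM. Of these, 0 passed the threshold by edgeR, 4 were lower and 0 higher at an unadjusted p under 0.05, and 2 were lower with DESeq2. Rgs5 was the largest part of the sum, at 718 and 422 CPM against 269 and 244 CPM. Only Myh11 of the 6 had a positive log2 fold change (0.32), with 32.1 and 35.9 CPM in control and 41.9 and 43.3 CPM in YAP5SA. Schwann cell and neuron markers summed to 15.2 and 11.6 CPM in control and 9.95 and 11.4 CPM in YAP5SA, with 0 past the threshold by edgeR, at an unadjusted p under 0.05 or with DESeq2. Adipocyte markers summed to 451 and 241 CPM against 137 and 146 CPM, and Fabp4 made up nearly all of each sum. Fabp4 alone had 450 and 241 CPM in control and 137 and 146 CPM in YAP5SA. Adipoq had 2 and 1 counts in control and 0 and 0 in YAP5SA, and Plin1 had 12 and 1, then 1 and 6. The part of these cell types in the lower transporter genes was not tested. In the remaining lists 1 of 6 fibroblast markers rose (Lum) and 0 fell, with 2 higher and 0 lower at an unadjusted p under 0.05. Only 2 of the 6 had a positive log2 fold change, and the fibroblast median was -0.39. With edgeR 0 markers of epicardium, adipocytes, erythroid cells and lymphocytes passed, with 2, 0, 0 and 1 higher and 1, 1, 0 and 1 lower at an unadjusted p under 0.05. DESeq2 called 1, 0, 0 and 1 of them higher and 0, 1, 0 and 1 lower.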

How the data were processed

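Nuclear RNA of 4 libraries, replicates 1 and 2 of control and YAP5SA, was analysed. The table deposited by the authors gives raw counts, whole numbers per gene symbol. Per the labels' protocols, libraries were stranded, STAR mapped the reads to mm10, and DESeq2 compared the groups. For the counting program, its strand setting and the annotation, the sources used here give no name, so overlapping genes on opposite strands cannot be told apart, and it is unknown whether intronic reads were counted. Positions, strands and exon lengths are those of GENCODE M21 on GRCm38 (mm10), which holds all 61 members. Exon length joins all annotated isoforms, which lowers the CPM per kb of genes with long rare exons.

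Low genes were dropped with filterByExpr (minimum count 10), leaving 17715, and TMM scaled the libraries. The test was edgeR 4.0.16 (R 4.3.3), its quasi-likelihood F test without a replicate block, adjusted by Benjamini-Hochberg over all tested genes, with a threshold of 0.05. A standard error is the absolute log2 fold change over the square root of the F statistic. Alternatives were DESeq2 1.42.0, limma-voom (limma 3.58.1), other scalings (DESeq2 size factors, library totals), a minimum count of 50, no filter, a replicate block, and leaving out each library. Replicates differed beyond sampling noise in either group (chi-square per gene 62.9 and 15.5). Named with values were members past an adjusted or unadjusted threshold of 0.05, the 2 highest of each family per kb, and genes of set roles. A member below the filter and an enzyme of the related lists are not reported here by name. Members, lists and tests were chosen with earlier results of these data known.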

Additional observations from a re-analysis of the deposited data

How the results depend on the processing

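Depth and 2 libraries a group limit these results, and the control pair sets most of the spread. Of the 5 transporter calls, all held with DESeq2 size factors, library totals, the stricter filter, DESeq2 and no filter. Slc7a2 lost its call with limma-voom. The replicate numbers share only a number (correlation of deviations from the group means -0.0917 over genes). With them as a replicate block Slc1a1, Slc7a2 and Slc38a1 lost their calls at log2 fold changes of -2.05, 1.18 and 1.24. That left 2 higher and 0 lower of 35 members (5.71% and 0%), beside 1.81% and 0.632% of all genes (321 and 112). At an unadjusted p under 0.05 there were 14 members (40.0%), beside 19.0% of all genes. In the related lists the block left 1 carrier higher and 1 lower, 1 enzyme higher and 1 sensing gene lower. With no filter 7 of 58 members were higher and 11 lower (12.1% and 19.0%). Of all 30546 genes in that fit, 1727 were higher and 1689 lower (5.65% and 5.53%). DESeq2 called 5 of 58 members higher and 4 lower, and 1069 of 30546 genes higher and 527 lower. The lower members include Slc6a19 in both fits and Slc7a3 with no filter, and the control level of each rests on control replicate 1. For the related lists, no filter gave 2 higher and 4 lower response genes, 1 and 2 sensing genes, 3 and 3 enzymes, and 3 and 3 carriers. DESeq2 gave 1 higher and 0 lower response genes, 1 and 1 sensing genes, 2 and 1 enzymes, and 3 and 1 carriers. With the stricter filter 1 carrier was higher and 1 lower, 1 enzyme was higher and 1 sensing gene lower. The cause of these moves was not tested.

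When libraries were left out one at a time, the members higher ran from 0 to 12 and those lower from 0 to 17, and all genes from 27 to 3749 higher and from 0 to 3554 lower. Over the same fits the higher and lower counts ran from 0 to 9 and 0 to 7 for the response list, from 0 to 8 and 0 to 7 for sensing, from 0 to 5 and 0 to 12 for the enzymes, and from 0 to 6 and 0 to 5 for the other carriers. The 5 member calls were lost without either YAP5SA library (adjusted p up to 0.201 for Slc1a3, 0.251 for Slc7a8, 0.426 for Slc38a1, 0.448 for Slc1a1 and 0.526 for Slc7a2), with log2 fold changes from 1.76 to 2.05 for Slc1a3 and from 1.64 to 2.47 for Slc7a8 over all alternatives.

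Signs changed only for genes that had not passed. Slc1a4 was at 0.0235 with library totals, 0.0419 with DESeq2, 0.0020 with limma-voom and 0.0357 with no filter, and from -0.0934 to 0.13 without single libraries. Slc36a1 was at 0.0304 with DESeq2, 0.0261 with no filter and 0.0306 with the replicate block, and from -0.33 to 0.46 without single libraries. With the stricter filter Slc38a9 was at -0.0098 and Slc38a10 at -0.0445, and without single libraries they ran from -0.43 to 0.78 and from -0.17 to 0.25. The other ranges without single libraries were -1.54 to 0.43 for Slc1a5, -0.27 to 0.22 for Slc1a7, -0.75 to 0.44 for Slc3a2, -0.74 to 0.0440 for Slc6a9, -0.22 to 0.62 for Slc36a4, -0.25 to 0.75 for Slc38a4, -1.12 to 0.21 for Slc43a2 and -1.81 to 0.0298 for Slc43a3.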
